A study of Homo sapiens with 26 samples.

Results

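The 4 Notch receptors of human cells, NOTCH1, NOTCH2, NOTCH3 and NOTCH4, were followed through 2 treatment experiments on NOTCH3 signalling in MDA-MB-468. This is a long-established human breast cancer line classed as basal and triple-negative. The receptors were chosen by name, as the complete receptor family, and are 4 of the 19775 genes measured. Gene expression was read on 26 Affymetrix HG-U133 Plus 2.0 arrays, on which a gene is represented by 1 or more probe sets. The array holds 10 probe sets that carry only the name of 1 of these receptors: 2 for NOTCH1, 4 for NOTCH2, 2 for NOTCH3 and 2 for NOTCH4. The brightest probe set of each receptor over all arrays gave its main value, on the log2 scale of the deposited intensity, and the others are given beside it.

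A Notch receptor is a single-pass membrane protein that meets ligands of the Delta-like and Jagged families on neighbouring cells. Ligand pulling exposes a site for ADAM10, after which gamma-secretase cuts the receptor inside the membrane and frees its intracellular domain. That domain joins the DNA-binding protein RBPJ and the MAML co-activators in the nucleus, where it switches on targets such as HES1, NRARP and MYC. NOTCH3 is itself known as a gene that Notch signalling can switch on, and Notch signalling is active in part of the basal breast cancers.

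In the antagonism experiment fewer cells were plated than in the agonism experiment, and they were grown for 40 h and treated for 24 h. Its 3 groups were a control antibody against gD (10 µg/ml) with 0.05% DMSO on 3 arrays, the same antibody with 5 µM DAPT on 3 arrays, and the NOTCH3 antibody anti-N3.A4 (10 µg/ml) with 0.05% DMSO on 2 arrays. DAPT is a small-molecule gamma-secretase inhibitor, so it acts on the cleavage of every Notch receptor and of other substrates. In the agonism experiment each of the 6 groups had 3 arrays. All dishes but DMSO were held in 5 µM DAPT for 16 h and then kept for 2 h in plain medium. The DMSO dishes had 0.05% DMSO and no DAPT, with the same 16 h step and 2 h washout in their labels. The DAPT group then received DAPT again. The other 4 groups were left without the inhibitor and received the control antibody (IgG, 20 µg/ml), the NOTCH3 antibody anti-N3.A13 (20 µg/ml), beads carrying Fc, or beads carrying JAG1-Fc, a Jagged ligand. DMSO and DAPT were renewed in their own dishes after 22 h, and every array was labelled as harvested at 24 h. The IgG and Fc bead groups thus had DAPT withdrawn with no added agonist, and they are the controls for A13 and JAG1 beads. They differ from the DAPT and DMSO groups also in the added antibody or beads and in the labelled renewal. These differences cannot be told apart from the withdrawal of DAPT.

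Sorted values were alike within an experiment and not between them: the array medians over genes lay at 8.39 to 8.46 log2 units in the antagonism experiment and at 7.78 to 7.87 in the agonism experiment. Levels were therefore never compared across experiments, nor between receptors, which different probes measure. The epithelial markers EPCAM, KRT8, KRT18 and CDH1 lay at or above percentile 88.6 of all genes on every array. Of the basal breast markers, EGFR and KRT5 lay at or above percentile 94.1, and KRT14 lay between 54.4 and 79.3. The luminal markers PGR, ESR1 and ERBB2 had been listed as low in this line. PGR lay between percentiles 14.0 and 20.6 and ESR1 between 29.3 and 57.2. ERBB2 lay between 67.2 and 76.7, above the median gene on every array. Whether these RNA levels bear on the triple-negative class of the line was not tested. Of the genes of other cell types, the leukocyte gene PTPRC lay between percentiles 6.27 and 13.3, DCN between 43.9 and 54.3, PECAM1 between 54.7 and 65.2 and COL1A1 between 70.0 and 78.8. Their part in the results was not tested. Antagonism control 2 stood apart from the other controls, and the SD of its log2 difference from control 3 over all genes, 0.320, was the highest among pairs of arrays of 1 group, which began at 0.129. Changes against the antagonism controls are given with and without it. Whether the arrays in a group stem from separate cultures is not stated in the labels, so the p-values measure a spread that may be technical. In bulk RNA, fewer cells that express a receptor and less of its RNA per cell cannot be told apart.

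NOTCH3 and NOTCH1 followed each other through the agonism groups, and NOTCH3 was the only receptor that passed the test in the antagonism experiment. The stretches of 250 bases before their transcription starts are shown because these are the 2 receptor genes that moved together in the agonism groups. They are from RefSeq on GRCh38.p14 and both lie on the minus strand, at chr19:15200996-15201245 for NOTCH3 and chr9:136546049-136546298 for NOTCH1. They are written from 5′ to 3′, with capitals marking each GGGCGG box, the binding motif of SP factors, on either strand.
NOTCH3: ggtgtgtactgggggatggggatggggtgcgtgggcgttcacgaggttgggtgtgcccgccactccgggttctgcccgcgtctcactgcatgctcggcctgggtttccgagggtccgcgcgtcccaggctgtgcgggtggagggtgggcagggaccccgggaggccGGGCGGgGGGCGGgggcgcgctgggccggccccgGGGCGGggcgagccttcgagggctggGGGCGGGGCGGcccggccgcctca
NOTCH1: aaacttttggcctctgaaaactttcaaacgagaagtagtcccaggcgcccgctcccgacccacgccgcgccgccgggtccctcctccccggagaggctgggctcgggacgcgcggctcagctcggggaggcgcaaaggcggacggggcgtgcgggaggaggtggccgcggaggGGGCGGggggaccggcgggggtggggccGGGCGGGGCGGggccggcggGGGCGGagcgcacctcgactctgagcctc
The NOTCH3 stretch has a GC content of 78.0% and holds 5 GGGCGG boxes, and that of NOTCH1 has 76.0% and 4 boxes, where boxes that share letters are each counted. The same window has 72.8% GC and 1 box at NOTCH2 and 58.0% GC and 1 box at NOTCH4. Over all 35116 promoters of the RefSeq table the median GC content is 58.0% with an upper quartile of 68.0%, and 42.64% hold at least 1 such box. The share that holds 4 or 5 boxes was not counted, and a link of the boxes to the changes in RNA was not tested. TGGGAA, the core of the common RBPJ motif, is in 20.85% of all promoters and TGAGAA, a variant of it, in 14.89%. CACGTG, an E-box, is in 6.345%. Searched on both strands, NOTCH1, NOTCH2 and NOTCH3 have none of these 3 motifs in this window, and NOTCH4 has a single TGAGAA. Matches of different motifs were counted separately, whether or not they overlapped, and a match or its lack describes only these letters in this window.

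In the antagonism experiment NOTCH3 was lower with either inhibitor of signalling. The controls read 12.16, 11.92 and 12.04 log2 units, the DAPT arrays 11.35, 11.53 and 11.34, and the A4 arrays 11.36 and 11.10. Every treated array lay below every control, and the DAPT and A4 arrays overlapped. NOTCH3 fell with DAPT by 0.63 ± 0.10 (SE, n = 3 and 3, limma, Benjamini-Hochberg adjusted p = 0.0389), to 0.644 of the control intensity (95% interval 0.553 to 0.751). It fell with A4 by 0.81 ± 0.11 (SE, n = 2 and 3, limma adjusted p = 0.0410), to 0.570 of the control (0.481 to 0.676). Of all genes, 0.354% passed for DAPT and 0.101% for A4, and of the receptors 1 of 4 passed in each. Both comparisons use the same 3 controls. Without control 2 NOTCH3 changed by -0.69 with DAPT (limma adjusted p = 0.0061) and by -0.87 with A4 (0.0066), and 6.06% and 0.485% of all genes passed. The NOTCH3 call was lost without control 1, without control 3 and without each DAPT or A4 array (limma adjusted p between 0.0877 and 0.528), with changes between -0.70 and -0.58 for DAPT and between -0.94 and -0.68 for A4. It was also lost where every single-gene probe set was tested, where only the compared groups were fitted, and where arrays were centred on their medians. The second, dimmer NOTCH3 probe set changed by -0.10 ± 0.11 (SE) with DAPT.

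The other receptors did not pass in these comparisons. NOTCH1, the receptor best known from T-cell leukaemia, read 8.56, 8.30 and 8.63 in the controls, 8.26, 8.40 and 8.32 with DAPT, and 8.44 and 8.39 with A4. Its groups overlapped, with a change of -0.17 ± 0.09 (SE) for DAPT and -0.08 ± 0.10 for A4. NOTCH2 read 11.41, 11.18 and 11.61 in the controls, 11.50, 11.50 and 11.44 with DAPT, and 11.54 and 11.43 with A4, so that the lowest and the highest of its 8 values were both controls. NOTCH4, known mainly from endothelial cells, lay between 7.47 and 8.02 in all 8 arrays. The 95% interval of the DAPT change was -0.38 to 0.04 for NOTCH1, -0.15 to 0.32 for NOTCH2 and -0.34 to 0.30 for NOTCH4. Changes of those sizes could not be detected with these arrays. Without control 2 none of these 3 passed either. The DAPT change was then -0.27 for NOTCH1 (limma adjusted p = 0.0580), -0.029 for NOTCH2 and 0.12 for NOTCH4, and the A4 change was -0.18, -0.026 and 0.038 in that order, so that NOTCH2 and NOTCH4 turned their sign.

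Antibody and inhibitor were also compared with each other. NOTCH3 was 0.18 ± 0.11 (SE, n = 2 and 3) lower with A4 than with DAPT (limma adjusted p = 0.672, 95% interval -0.42 to 0.07). None of the 4 receptors passed, and 0 of 19775 genes (0%) did so in limma, although 1628 had an unadjusted p under 0.05. In the moderated F test over the 3 groups, NOTCH3 passed (limma adjusted p = 0.0457), as did 0.177% of all genes. Without control 2 it passed at a limma adjusted p of 0.0072, beside 3.49% of all genes, and the other receptors did not.

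**Figure D1:**
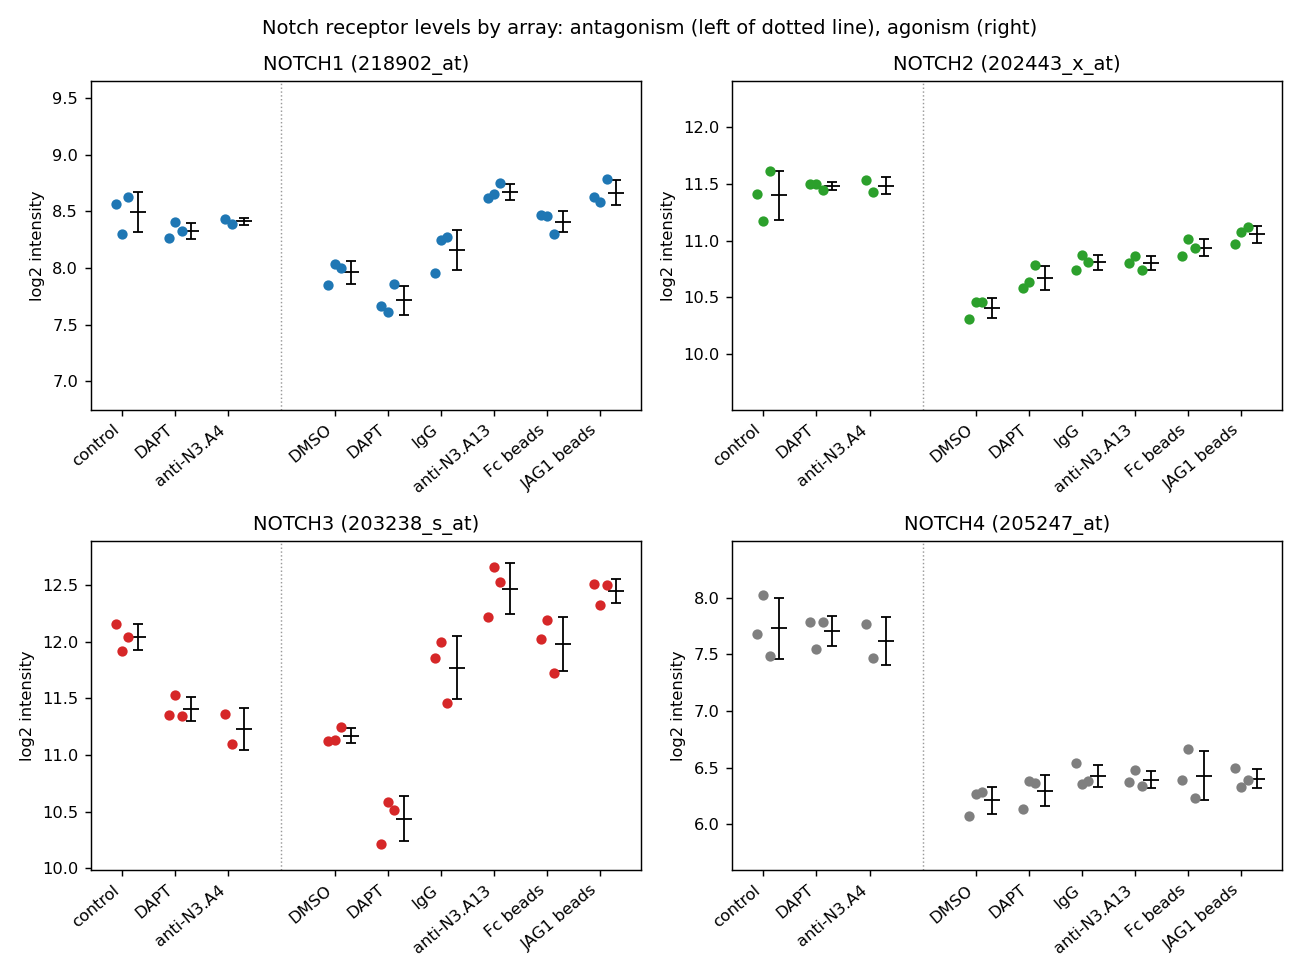
Log2 intensity of the main probe set of each receptor (vertical axis) in every array, by treatment group (horizontal axis), with the antagonism groups left of the dotted line and the agonism groups right of it. Points are arrays, bars are the group mean ± SD; all 5 treated antagonism arrays lie below the controls for NOTCH3, and NOTCH3 and NOTCH1 are lowest with DAPT and highest with anti-N3.A13 and JAG1 beads in the agonism groups.

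The agonism experiment gave the same direction for NOTCH3 under DAPT, and it also followed the receptors after the inhibitor was washed out. The DMSO arrays read 11.13, 11.13 and 11.25 and the DAPT arrays 10.21, 10.59 and 10.51, with no overlap. NOTCH3 fell by 0.73 ± 0.14 (SE, n = 3 and 3, limma adjusted p = 0.0013), to 0.602 of the DMSO intensity. NOTCH2 moved the other way. Its DMSO arrays read 10.30, 10.46 and 10.46 and its DAPT arrays 10.58, 10.63 and 10.79, again with no overlap. NOTCH2 rose by 0.26 ± 0.07 (SE, limma adjusted p = 0.0119), a call that was lost without DMSO array 1 (limma adjusted p = 0.0797) or DAPT array 3 (0.0810) and where only these groups were fitted (0.0617). NOTCH1 read 7.85, 8.04 and 8.003 with DMSO and 7.67, 7.61 and 7.86 with DAPT. These groups met at 1 array of each, and the change of -0.25 ± 0.09 did not pass (limma adjusted p = 0.0622); it passed without DAPT array 3 (0.0357). NOTCH4 lay between 6.07 and 6.38 in both groups. Of all genes, 20.7% passed in this comparison, as did 2 of the 4 receptors, and a count over 4 genes says little beside that background.

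The DAPT effect itself was compared between the experiments, which differ in the number of cells plated, in exposure and in the control medium. The difference, antagonism minus agonism, was 0.10 ± 0.19 (SE) for NOTCH3 with a 95% interval of -0.30 to 0.49. It was 0.08 ± 0.13 for NOTCH1, -0.18 ± 0.12 for NOTCH2 and -0.11 ± 0.17 for NOTCH4. None of the 4 passed (limma adjusted p between 0.407 and 0.831), against 6.12% of all genes. Without antagonism control 2 the differences were -0.018 for NOTCH1, -0.29 for NOTCH2 (limma adjusted p = 0.0665), 0.038 for NOTCH3 and 0.036 for NOTCH4. Again none passed, against 14.3% of all genes.

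After the washout, with only the control IgG added, NOTCH3 stood at 11.85, 12.00 and 11.46 log2 units. All 3 arrays lay above every DAPT array and above every DMSO array. Against continued DAPT, NOTCH3 rose by 1.33 ± 0.14 (SE, n = 3 and 3, limma adjusted p = 6.07e-06), or 2.52-fold (95% interval 2.05 to 3.10). NOTCH1 read 7.95, 8.24 and 8.27 with IgG, also clear of the DAPT arrays, and rose by 0.44 ± 0.09 (limma adjusted p = 0.0041). NOTCH2 (0.14 ± 0.07) and NOTCH4 (0.13 ± 0.10) did not pass. Thus 2 of 4 receptors passed, against 9.77% of all genes.

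Against DMSO, cells that were never given the inhibitor, the IgG dishes were higher in NOTCH3 by 0.60 ± 0.14 (SE, limma adjusted p = 0.0033), or 1.52-fold (95% interval 1.24 to 1.87). The 3 IgG arrays of NOTCH2, at 10.74, 10.88 and 10.81, also lay above all DMSO arrays, and NOTCH2 rose by 0.40 ± 0.07 (limma adjusted p = 0.0003). NOTCH1 was 0.19 ± 0.09 higher and overlapped (limma adjusted p = 0.119), and passed without IgG array 1 (0.0188) and with array weights (0.0108). NOTCH4 read 6.54, 6.36 and 6.38 with IgG and 6.07, 6.27 and 6.29 with DMSO, which did not overlap, and its change of 0.22 ± 0.10 did not pass (limma adjusted p = 0.109). Here 30.6% of all genes passed, and 2 of 4 receptors.

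With the NOTCH3 antibody A13 added after the washout, NOTCH3 and NOTCH1 rose further. The A13 arrays of NOTCH3 read 12.22, 12.66 and 12.53, all above the IgG arrays. NOTCH3 rose by 0.70 ± 0.14 (SE, n = 3 and 3, limma adjusted p = 0.0021), or 1.62-fold (95% interval 1.32 to 1.99). The NOTCH1 arrays read 8.62, 8.65 and 8.75, above all IgG arrays. NOTCH1 rose by 0.52 ± 0.09 (limma adjusted p = 0.0006), or 1.43-fold (1.25 to 1.63). NOTCH2, at 10.80, 10.86 and 10.74, lay within the range of its IgG arrays, with a change of -0.01 ± 0.07 and a 95% interval of -0.15 to 0.14. NOTCH4, at 6.37, 6.48 and 6.33, changed by -0.03 ± 0.10 (limma adjusted p = 0.892). So 2 of 4 receptors passed, against 14.7% of all genes. Both calls held without any 1 of the 6 arrays.

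Set against continued DAPT, A13 gave the largest NOTCH3 and NOTCH1 changes of the 12 comparisons between groups, close to those of JAG1 beads against DAPT. NOTCH3 was 2.03 ± 0.14 (SE) higher (limma adjusted p = 3.42e-09), or 4.09-fold, and NOTCH1 0.96 ± 0.09 higher (1.80e-07), or 1.95-fold. NOTCH2 (0.13 ± 0.07, limma adjusted p = 0.181) and NOTCH4 (0.10 ± 0.10) did not pass, against 28.2% of all genes. Against DMSO, A13 was higher in NOTCH3 by 1.30 ± 0.14, in NOTCH1 by 0.71 ± 0.09 and in NOTCH2 by 0.39 ± 0.07, and these 3 of 4 receptors passed in limma, beside 30.9% of all genes. NOTCH4 was 0.18 ± 0.10 higher, without overlap, and did not pass (limma adjusted p = 0.183). These comparisons share the A13 arrays with the one against IgG.

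Fc beads, the bead control, read 12.03, 12.20 and 11.72 for NOTCH3, which overlapped with IgG. For NOTCH1 they read 8.47, 8.45 and 8.30 and lay just above the IgG arrays, with a change of 0.25 ± 0.09 that did not pass (limma adjusted p = 0.183). None of the 4 receptors passed between Fc beads and IgG, and 2.08% of all genes did. JAG1 beads read 12.51, 12.32 and 12.50 for NOTCH3 and 8.62, 8.58 and 8.79 for NOTCH1. Every JAG1 array lay above every Fc bead array for both genes, and the share of all genes without such overlap was not counted. The changes were 0.46 ± 0.14 (SE, n = 3 and 3, limma adjusted p = 0.0525) for NOTCH3, with a 95% interval of 0.17 to 0.76, and 0.26 ± 0.09 (limma adjusted p = 0.0985) for NOTCH1, with an interval of 0.07 to 0.45. Neither passed, and none of the 4 receptors did, against 8.11% of all genes. Without Fc bead array 2, the highest of its group for NOTCH3, that change passed (limma adjusted p = 0.0401). NOTCH2 read 10.97, 11.08 and 11.12 with JAG1 beads and 10.86, 11.01 and 10.94 with Fc beads, and the groups overlapped.

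Against continued DAPT the JAG1 bead arrays were higher in NOTCH3 by 2.01 ± 0.14 (SE, limma adjusted p = 3.94e-09), or 4.02-fold, in NOTCH1 by 0.95 ± 0.09 (1.75e-07) and in NOTCH2 by 0.39 ± 0.07 (0.0002). NOTCH4 did not pass (0.11 ± 0.10), so 3 of 4 receptors did, beside 33.2% of all genes. The 2 agonists were compared through their own controls. JAG1 over Fc beads minus A13 over IgG gave -0.23 ± 0.20 (SE) for NOTCH3 (95% interval -0.66 to 0.19) and -0.26 ± 0.13 for NOTCH1 (-0.53 to 0.01). It gave 0.12 ± 0.10 for NOTCH2 and 0.01 ± 0.14 for NOTCH4. None of the 4 passed in limma (adjusted p between 0.856 and 0.996), against 0.182% of all genes, and these intervals do not show that the agonists act alike.

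**Figure D2:**
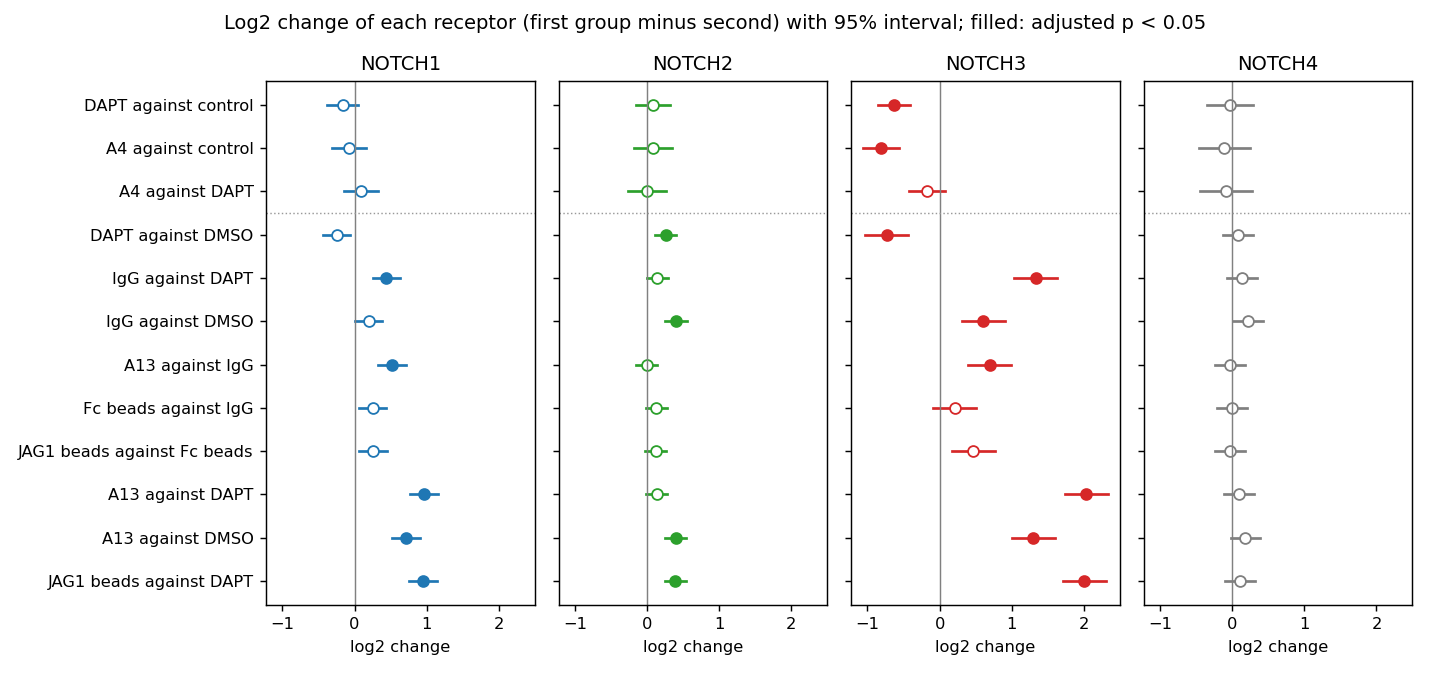
Log2 change of each receptor (horizontal axis, first-named group minus the second) in 12 comparisons (vertical axis), with the antagonism comparisons above the dotted line. Points are limma estimates with 95% intervals, filled where the adjusted p was under 0.05; NOTCH3 has filled points on both sides of 0, NOTCH2 has filled points only above 0, and NOTCH4 has none.

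Ordered by their means, the agonism groups ran the same way for NOTCH3 and NOTCH1: DAPT, DMSO, IgG, Fc beads, JAG1 beads, A13. For NOTCH3 the means were 10.44, 11.17, 11.77, 11.98, 12.44 and 12.47. The steps from DAPT to DMSO and from DMSO to IgG passed the test, and the next 3 steps did not. Of these, the step of 0.46 from Fc beads to JAG1 beads had no overlap of arrays and an interval above 0, as given above. That interval is not adjusted over genes, and the share of all genes without overlap was not counted. IgG and Fc beads overlapped, and JAG1 beads and A13 were 0.02 ± 0.14 (SE) apart. For NOTCH1 the means ran from 7.71 to 8.67, and no step between neighbours passed. NOTCH2 had another order, DMSO, DAPT, A13, IgG, Fc beads, JAG1 beads, with means from 10.41 to 11.06, and only its first step passed. NOTCH4 means ran from 6.21 with DMSO to 6.43 with Fc beads, with no step that passed. These NOTCH4 values sat near the lower quartile of all genes on the arrays, 6.35 to 6.48, and the files carry no detection calls, so a low reading is not a measured absence. In the moderated F test over the 6 groups NOTCH1, NOTCH2 and NOTCH3 passed and NOTCH4 did not (limma adjusted p = 0.315), against 45.8% of all genes. Across the 18 agonism arrays the correlation of NOTCH1 with NOTCH3 was 0.933, and that of NOTCH2 with NOTCH3 was 0.656. Over the 8 antagonism arrays the same correlations were 0.603 and -0.186. Arrays of a group share their treatment, so these values describe the groups as much as the arrays.

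Whether NOTCH3 moved more than its relatives was examined within each array, as the log2 difference of 2 receptors. The exact permutation test, two-sided, cannot go below p = 0.1 with these numbers of arrays. The same differences were therefore also fitted with limma together with all genes, a test added after the data had been seen. Under DAPT in the agonism experiment NOTCH3 fell by 0.48 ± 0.15 (SE) more than NOTCH1 (exact permutation p = 0.1, limma adjusted p = 0.0282). The change of NOTCH3 lay 0.99 ± 0.14 below that of NOTCH2 (exact permutation p = 0.1, limma adjusted p = 8.27e-05). On washout with IgG it exceeded that of NOTCH1 by 0.89 ± 0.15 and that of NOTCH2 by 1.19 ± 0.14 (both exact permutation p = 0.1, limma adjusted p = 0.0008 and 1.42e-05).

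With A13 over IgG the excess of NOTCH3 over NOTCH1 was 0.18 ± 0.15 (SE, exact permutation p = 0.6, limma adjusted p = 0.526), with a 95% interval of -0.14 to 0.50. This gap did not pass, and it was not tested against the gaps under DAPT or on washout. NOTCH3 exceeded NOTCH2 by 0.70 ± 0.14 (exact permutation p = 0.1, limma adjusted p = 0.0015), and NOTCH1 exceeded NOTCH2 by 0.52 ± 0.08 (limma adjusted p = 0.0001). With JAG1 over Fc beads NOTCH3 exceeded NOTCH1 by 0.21 ± 0.15 (exact permutation p = 0.2) and NOTCH2 by 0.34 ± 0.14 (exact permutation p = 0.1), neither of which passed in limma (adjusted p = 0.499 and 0.148). In the antagonism experiment the DAPT change of NOTCH3 lay 0.72 ± 0.10 below that of NOTCH2 (exact permutation p = 0.1, limma adjusted p = 0.0270) and 0.47 ± 0.09 below that of NOTCH1, which did not pass (exact permutation p = 0.1, limma adjusted p = 0.0695). With A4 it lay 0.73 ± 0.10 below NOTCH1 and 0.90 ± 0.11 below NOTCH2 (both exact permutation p = 0.1, limma adjusted p = 0.0337 and 0.0336). Without control 2 all 4 of these passed. The DAPT change of NOTCH3 then lay 0.43 below that of NOTCH1 and 0.66 below that of NOTCH2, and the A4 change lay 0.69 and 0.84 below them (limma adjusted p between 0.0081 and 0.0234). Over all controls the DAPT change of NOTCH3 lay 0.61 ± 0.17 below that of NOTCH4 (exact permutation p = 0.2, limma adjusted p = 0.184). With A4 it lay 0.70 ± 0.20 below (exact permutation p = 0.2, limma adjusted p = 0.279). Neither passed, and neither was fitted without control 2. In the agonism experiment NOTCH3 minus NOTCH4 passed in limma for DAPT (-0.82), washout with IgG (1.20), A13 (0.73) and JAG1 beads (0.49).

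The probe sets of a receptor did not all read alike. For NOTCH3 the main probe set 203238_s_at and the dimmer 203237_s_at disagreed under DAPT. The second read 7.71, 8.08 and 7.74 with DMSO and 7.70, 7.84 and 7.81 with DAPT, which overlapped, and changed by -0.06 ± 0.12 (SE) where the main one changed by -0.73. The gap of -0.67 ± 0.16 passed (limma adjusted p = 0.0059). On washout with IgG the second changed by 0.19 ± 0.12, and the gap to the main probe set was 1.15 ± 0.16 (limma adjusted p = 0.0001). With A13 both probe sets were higher. The second read 8.46, 8.62 and 8.72 against 8.20, 7.73 and 7.99 with IgG, with no overlap. It rose there by 0.63 ± 0.12 (limma adjusted p = 0.0022 over all single-gene probe sets), 0.07 ± 0.16 from the main value. With A4 in the antagonism experiment it changed by -0.18 ± 0.12, and without control 2 by -0.097 with A4 and -0.021 with DAPT. Against DAPT the second rose by 0.82 ± 0.12 with A13 and by 0.74 ± 0.12 with JAG1 beads. The gaps to the main probe set were 1.21 ± 0.16 and 1.26 ± 0.16 (limma adjusted p = 1.09e-05 and 5.42e-06). With A13 against DMSO it rose by 0.76 ± 0.12, with a gap of 0.54 ± 0.16 (limma adjusted p = 0.0145). So the falls of NOTCH3 and its rise on washout rest on 1 of its 2 probe sets. The rise with A13 over IgG is seen in both, and the larger changes against DAPT and DMSO differ in size between them.

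NOTCH1 depended on the probe set in another way. Its main probe set 218902_at rose with A13 by 0.52, while 223508_at changed by 0.10 ± 0.08 (SE), and the gap of 0.42 ± 0.11 passed (limma adjusted p = 0.0129). Against DAPT the second changed by 0.26 ± 0.08 with A13 and by 0.26 ± 0.08 with JAG1 beads, in the direction of the main probe set and smaller than its 0.96 and 0.95. On washout with IgG it changed by 0.16 ± 0.08 (limma adjusted p = 0.289), and the gap of 0.28 ± 0.11 did not pass (0.113). With A13 over DMSO it changed by 0.19 ± 0.08 (0.0854), and the gap of 0.52 ± 0.11 passed (0.0010). So the NOTCH1 calls on washout and with A13 over IgG or DMSO rest on 1 of its 2 probe sets. For NOTCH2, 212377_s_at read much like the main 202443_x_at. It rose by 0.30 ± 0.07 with DAPT over DMSO (limma adjusted p = 0.0059 over all single-gene probe sets) and changed by -0.03 ± 0.07 with A13. The third, 210756_s_at, changed by 0.26 ± 0.12 and 0.05 ± 0.12, and the dim 202445_s_at by 0.05 ± 0.08 and 0.13 ± 0.08. The second NOTCH4 probe set, 240786_at, changed by -0.16 ± 0.09 with DAPT and -0.10 ± 0.09 with A13. Over the 41091 single-gene probe sets, 16.9% passed for DAPT against DMSO, 6.5% for IgG against DAPT and 10.4% for A13 against IgG. Of the 10 receptor probe sets 3, 2 and 3 passed there, NOTCH3 and NOTCH1 main probe sets among them for IgG and A13.

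**Figure D3:**
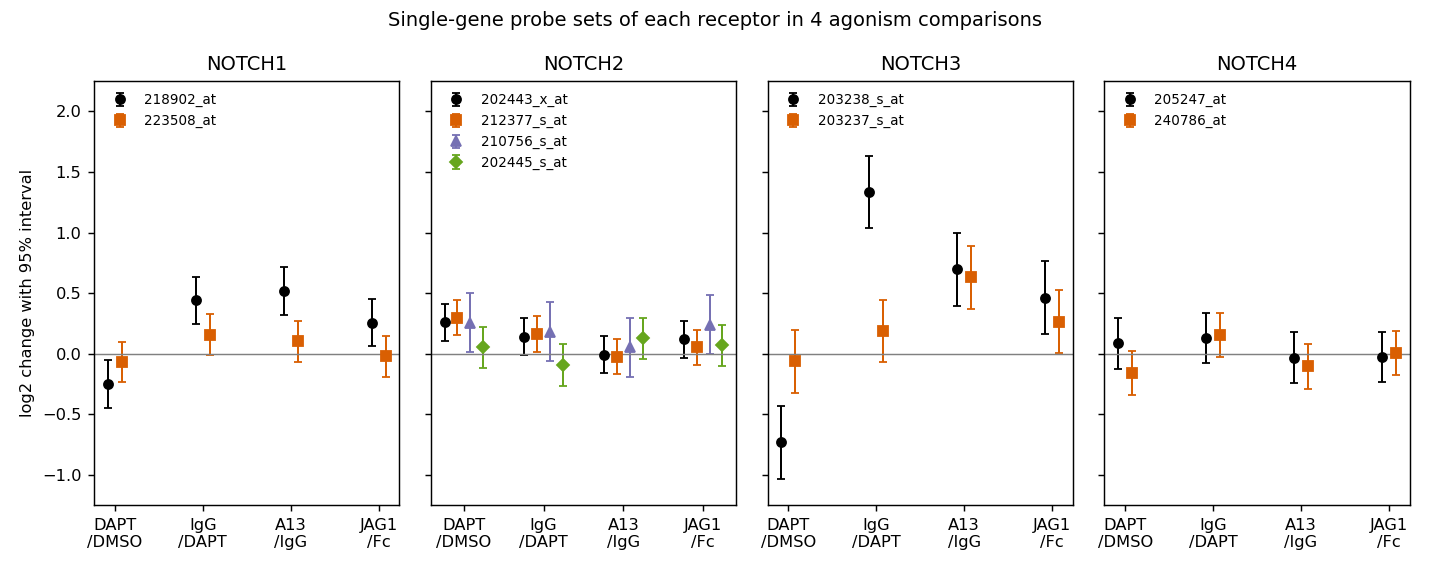
Log2 change with its 95% interval (vertical axis) of each single-gene probe set of the 4 receptors in 4 agonism comparisons (horizontal axis), with symbols and colours naming the probe set. The 2 NOTCH3 probe sets lie 0.67 and 1.15 apart for DAPT and IgG and 0.07 apart for A13, and the 2 NOTCH1 probe sets lie 0.42 apart for A13.

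The ligands, the first of 5 lists of other Notch pathway genes, changed mainly through JAG1. JAG1 encodes the Jagged ligand that the beads carry as protein. It fell with DAPT by 0.32 ± 0.07 (SE, limma adjusted p = 0.0049), rose on washout with IgG by 0.63 ± 0.07 (1.67e-05), rose with A13 by 1.08 ± 0.07 (8.76e-09) and rose with JAG1 beads over Fc beads by 0.65 ± 0.07 (1.44e-05). It was the only 1 of 5 ligand genes to pass in each of these comparisons. Of all genes 20.7%, 9.77%, 14.7% and 8.11% passed there, in the same order. Against DAPT, DLL3 (0.26 ± 0.07) and JAG2 (0.24 ± 0.07) also rose with A13, and DLL1 (0.29 ± 0.09) and JAG2 (0.53 ± 0.07) with JAG1 beads. Thus 3 of 5 ligand genes passed in each, beside 28.2% and 33.2% of all genes. In the antagonism experiment JAG1 was 0.64 lower with either treatment and did not pass (limma adjusted p = 0.0781 for DAPT and 0.150 for A4). Without control 2 it fell by 0.72 with either, and both passed (limma adjusted p = 0.0097 and 0.0424), beside 6.06% and 0.485% of all genes.

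Genes that sugar-coat and cleave the receptors moved in both directions. LFNG, the Lunatic fringe enzyme that modifies Notch sugars and so tunes ligand choice, rose with DAPT by 0.58 ± 0.11 (SE, limma adjusted p = 0.0012). It fell on washout by 0.63 ± 0.11 (0.0012) and fell again with A13 by 0.52 ± 0.11 (0.0031), opposite in sign to NOTCH3 at each step. PSENEN, a gamma-secretase subunit, fell on washout by 0.39 ± 0.08 (limma adjusted p = 0.0027), with A13 by 0.33 ± 0.08 (0.0051) and with JAG1 beads by 0.27 ± 0.08 (0.0321). NCSTN, another subunit, rose with DAPT by 0.24 ± 0.06 (0.0084) and fell with A13 by 0.25 ± 0.06 (0.0079). ADAM10, the protease of the first cut, rose with DAPT by 0.27 ± 0.06 (0.0039). Its mean also lay above that of DMSO with IgG (by 0.29), Fc beads (0.45), A13 (0.45) and JAG1 beads (0.60). Over all genes, 12.4% rose and 8.31% fell with DAPT, 4.15% rose and 5.62% fell on washout, 5.68% rose and 9.02% fell with A13, and 2.97% rose and 5.14% fell with JAG1 beads. Of the 13 genes measured in this list, 3 rose and 1 fell with DAPT, 0 rose and 3 fell on washout, 1 rose and 3 fell with A13, and 0 rose and 1 fell with JAG1 beads.

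The nuclear partners rose more often than they fell in the agonism comparisons, DAPT over DMSO among them. MAML2, a co-activator of the Notch complex, rose with A13 by 0.32 ± 0.08 (SE, limma adjusted p = 0.0092) and with JAG1 beads by 0.34 ± 0.08 (0.0111), and CREBBP, an acetyltransferase, rose with JAG1 beads by 0.36 ± 0.10 (0.0371). SPEN, a co-repressor that binds RBPJ, rose on washout by 0.28 ± 0.07 (0.0219). Of the 11 measured, 2 rose and 0 fell with A13 and with JAG1 beads alike, and 6 rose and 0 fell with A13 against DAPT. With DAPT over DMSO 2 rose and 1 fell, where 12.4% of all genes rose and 8.31% fell. With IgG over DMSO 4 rose and 0 fell, where 17.9% of all genes rose and 12.6% fell. Over all genes 5.68% rose and 9.02% fell with A13, 2.97% and 5.14% with JAG1 beads, and 12.0% and 16.2% with A13 against DAPT. The medians of the list were 0.07 for A13, 0.16 for JAG1 beads and 0.28 for A13 against DAPT, beside -0.03, 0.01 and 0.01 over all genes.

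Among the 17 genes of receptor trafficking and turnover, DTX4, an E3 ligase of the Deltex family, had the largest change. It rose with DAPT by 0.63 ± 0.07 (SE, limma adjusted p = 7.06e-06), fell with A13 by 0.56 ± 0.07 (1.27e-05) and fell with JAG1 beads by 0.32 ± 0.07 (0.0052). DTX2, of the same family, rose with DAPT by 0.42 ± 0.11 and fell with A13 by 0.36 ± 0.11. With DAPT, 6 of the 17 rose and 1 fell, the latter being NUMB, an endocytic adaptor that limits Notch signalling (-0.36 ± 0.11). With A13, 0 rose and 2 fell. Over all genes 12.4% rose and 8.31% fell with DAPT, and 5.68% rose and 9.02% fell with A13. The list's median was 0.19 for DAPT, beside 0.02 over all genes.

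Of 12 target genes, 1 rose and 4 fell with DAPT, 7 rose and 1 fell on washout, 8 rose and 1 fell with A13, and 4 rose and 1 fell with JAG1 beads. The shares of all genes that rose and fell were 12.4% and 8.31% with DAPT, 4.15% and 5.62% on washout, 5.68% and 9.02% with A13, and 2.97% and 5.14% with JAG1 beads. NRARP, a feedback inhibitor of the Notch complex, rose with A13 by 1.90 ± 0.07 (SE, limma adjusted p = 2.18e-12) and with JAG1 beads by 1.01 ± 0.07 (4.07e-08). MYC, a growth regulator, rose by 1.33 ± 0.07 and 0.80 ± 0.07 in the same comparisons and fell with DAPT by 1.21 ± 0.07. HES1, a repressor and classical Notch target, fell with DAPT by 0.39 ± 0.06 and rose with A13 by 0.33 ± 0.06 and with JAG1 beads by 0.22 ± 0.06 (limma adjusted p = 0.0394). CDKN1A, a cell cycle inhibitor, moved against the rest: it rose with DAPT by 0.80 ± 0.07 and fell with A13 by 0.33 ± 0.07 and with JAG1 beads by 0.38 ± 0.07. In the antagonism experiment HES1 (by 0.50 ± 0.07 with DAPT and 0.65 ± 0.08 with A4) and MYC (by 1.34 ± 0.10 and 1.15 ± 0.11) fell, and these 2 of 12 targets passed in both comparisons, against 0.354% of all genes for DAPT and 0.101% for A4. No gene of the other 4 lists passed. Where the arrays were quantile normalised again, CCND1 and CDKN1A among the targets, 1 ligand gene and 2 trafficking genes also passed with DAPT, and CCND1 also with A4. Without control 2 HES1 (-0.52 with DAPT and -0.67 with A4) and MYC (-1.34 and -1.15) still passed. Then 5 of 12 targets passed with DAPT, with CCND1, CDKN1A and HES4 added, and 3 of 12 with A4, with CCND1 added. In these fits without control 2, 6.06% of all genes passed with DAPT and 0.485% with A4. Of the other lists JAG1, KAT2B, MAML3, DTX4 and NUMBL passed with DAPT and JAG1 with A4.

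Of the 12 targets, 2 differed between the agonists: JAG1 over Fc beads was smaller than A13 over IgG by 0.89 ± 0.10 (SE, limma adjusted p = 0.0002) for NRARP and by 0.53 ± 0.10 (0.0419) for MYC, against 0.182% of all genes. The MYC call was lost with median centring (limma adjusted p = 0.0603), and CCND1 also passed where the arrays were quantile normalised again (0.0242). The balance of rises and falls in the agonism list counts given here kept its direction when arrays were centred on their medians or quantile normalised again, although single members crossed the threshold. This does not cover the nuclear partners with DAPT or IgG over DMSO, or the ligands against DAPT.

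**Figure D4:**
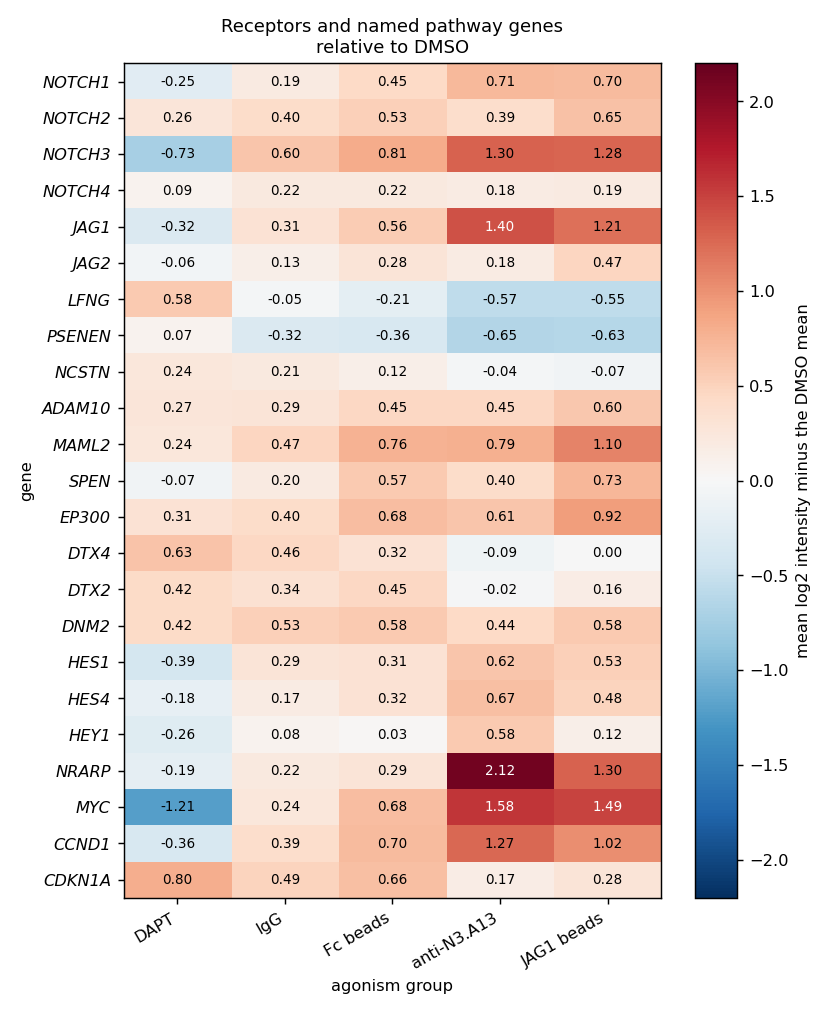
Mean log2 intensity of each agonism group (columns) minus the DMSO mean, for the 4 receptors and 19 named pathway genes (rows), as colour and as the number in each cell. NOTCH3 goes from -0.73 with DAPT to 1.30 with anti-N3.A13 and JAG1 from -0.32 to 1.40, while LFNG goes from 0.58 to -0.57; each column uses 3 arrays and shares the DMSO arrays.

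Genes whose levels ran most like each receptor were taken from the 9064 other genes that passed the F test over the agonism groups, by Pearson correlation over the 18 agonism arrays. For NOTCH3 they were PLCG2 (r = 0.974), IARS1 (0.966), ID4, TRIB2, STOM and PSAT1 (0.963). Over the 8 antagonism arrays, which did not choose them, their r with NOTCH3 lay between 0.688 for PLCG2 and 0.935 for PSAT1. ID4 had the widest range of group means, 3.38 log2 units against 2.03 for NOTCH3. For NOTCH1 they were KIRREL1 (r = 0.984), TRAP1, ROBO1, CCND1, ZMIZ1 and UBE2S, and over the antagonism arrays r lay between 0.480 for CCND1 and 0.913 for KIRREL1. For NOTCH2 they were PRPF8 (r = 0.972), USP9X, KANSL1, MFHAS1, CNOT1 and FOXO3, with r between 0.391 and 0.896 over the antagonism arrays. The receptors' lists had no gene in common. All 18 arrays share 6 treatments, so these values describe likeness of level and carry no test. The antagonism correlations include control 2 and were not taken without it.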

How the data were processed

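Gene expression was measured on 26 arrays in 9 treatment groups. The deposited table holds 1 linear intensity per probe set and array, from 7.12 to 32597. The submitters' processing notes list RMA and R 2.10 without their roles. The planned tests assumed log2 values, so log2 of the deposited intensity was taken. RMA makes arrays alike, which reduces shifts shared by most genes. Of 54675 probe sets, 41091 had 1 gene symbol, 1801 several and 11783 none. The brightest single-gene probe set by mean over all arrays stood for each of 19775 genes.

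The tests used limma (3.58.1, R 4.3.3), with all groups of an experiment in 1 fit and Benjamini-Hochberg adjustment over all genes, and passed at an adjusted p under 0.05. "Rose" and "fell" mean passed. Scripts were tested on simulated data. Figures were drawn with matplotlib 3.10.9. Groups come from the treatment labels, and arrays are numbered in listing order. Precision is limited by the number of arrays.

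The receptors, the pathway lists and the tests were chosen with earlier results of these data known. Named pathway genes were the passing members with the largest change, at most 4 a list and comparison, plus JAG1, HES1, NRARP and MYC. Of the genes listed, 13 of 14 for glycosylation and processing and 11 of 13 for the nuclear complex were measured. Alternatives covered the groups fitted, the scaling, the variance model, array weights, dim genes, the probe set and each array left out. Promoters were read from a RefSeq table.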

Additional observations from a re-analysis of the deposited data

How the results depend on the processing

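In the agonism experiment the NOTCH3 and NOTCH1 calls for IgG against DAPT, A13 against IgG, and A13 or JAG1 beads against DAPT held with every array left out in turn. The antagonism calls of NOTCH3 were lost under several alternatives. For DAPT they were lost with only the compared groups fitted (-0.63, limma adjusted p = 0.0765), with median centring (-0.63, 0.0524), with the mean of both probe sets (-0.37, 0.113) and with every single-gene probe set tested (-0.63, 0.0931), and for A4 in the same order at -0.81 (0.254), -0.82 (0.0503), -0.49 (0.111) and -0.81 (0.114). The cause was not tested. The last alternative adjusts over more features and has its own variance estimate. The mean takes in the second probe set, which changed by -0.10 with DAPT and -0.18 with A4 and did not pass.

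NOTCH1 passed for DAPT against DMSO with repeated quantile normalization (-0.28), with trend and robust variances (-0.25) and among genes above the median level (-0.25). NOTCH2 lost that comparison with only its groups fitted (0.26). With array weights NOTCH1 (0.28) and NOTCH4 (0.25) passed for IgG against DMSO and NOTCH4 (0.24) for A13 against DMSO. For JAG1 against Fc beads NOTCH1 passed among genes above the median level (0.26), and NOTCH3 passed there (0.46), with repeated quantile normalization (0.47) and with the mean of its probe sets (0.36).

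Signs turned only for changes that did not pass. With the mean of probe sets these were NOTCH2 (-0.027) and NOTCH4 (0.086) for antagonism DAPT, NOTCH4 for DAPT against DMSO (-0.038), NOTCH2 for A13 against IgG (0.038) and NOTCH4 for the difference of the DAPT effects (0.12). With median centring they were NOTCH2 for A4 against DAPT (-0.013) and for A13 against IgG (0.0017). Repeated quantile normalization gave 0.017 for the last. NOTCH4 turned in the difference of the agonist effects with median centring (-0.012), quantile normalization (-0.016) and array weights (-0.087).

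Leaving out each array moved the DAPT change of NOTCH3 between -0.70 and -0.58 and its A4 change between -0.94 and -0.68 in the antagonism experiment, where an A4 group of 1 array is assumed to vary like the others. The antagonism ranges that crossed 0 were -0.029 to 0.19 (NOTCH2) and -0.15 to 0.12 (NOTCH4) for DAPT, -0.026 to 0.19 (NOTCH2) and -0.26 to 0.041 (NOTCH4) for A4, and -0.049 to 0.055 (NOTCH2) and -0.23 to 0.066 (NOTCH4) between them. For DAPT against DMSO the range was -0.32 to -0.20 for NOTCH1 and 0.20 to 0.30 for NOTCH2, and for IgG against DMSO 0.14 to 0.30 for NOTCH1. For A13 against IgG it was -0.040 to 0.028 for NOTCH2 and -0.073 to 0.025 for NOTCH4, for Fc beads against IgG -0.11 to 0.10 for NOTCH4, and for JAG1 against Fc beads 0.33 to 0.57 for NOTCH3 and -0.12 to 0.090 for NOTCH4. The agonist difference of NOTCH4 ran from -0.092 to 0.12, and the DAPT difference from -0.018 to 0.16 for NOTCH1, -0.015 to 0.17 for NOTCH3 and -0.23 to 0.036 for NOTCH4.

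Against the exact permutation test, which cannot pass here, limma on within-array differences called NOTCH3 minus NOTCH2 for antagonism DAPT (-0.72), A4 (-0.90), DAPT against DMSO (-0.99), IgG against DAPT (1.19) and A13 against IgG (0.70), and NOTCH3 minus NOTCH1 for A4 (-0.73), DAPT against DMSO (-0.48) and IgG against DAPT (0.89). For NOTCH3 minus NOTCH4 it called DAPT against DMSO (-0.82), IgG against DAPT (1.20), A13 against IgG (0.73) and JAG1 against Fc beads (0.49). This test, the one over every probe set, the fits of receptor differences and pathway genes without control 2, and the rescaled agonist difference of the targets were chosen after seeing the data.

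No paired analysis was possible because the labels give no replicate numbers. NOTCH2 and NOTCH3 have no probe set outside the _x_at and _s_at kinds, so that alternative gave no value for them, and genes below the median level, NOTCH4 among them, gave none under the filter on dim genes. Array weights could not be fitted in the antagonism experiment, where the estimate did not converge. Without detection calls, NOTCH4 values near the lower quartile set only a weak limit on its changes.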

Other observations

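A further probe set, 227067_x_at, carries the names of NOTCH2 and of 4 human-specific partial copies of it, NOTCH2NLA, NOTCH2NLB, NOTCH2NLC and NOTCH2NLR, so it could not be assigned to the receptor. It changed by 0.23 ± 0.07 (SE) with DAPT over DMSO and by -0.28 ± 0.07 with A13 over IgG, where the main NOTCH2 probe set changed by 0.26 and -0.01. The difference from NOTCH2 was -0.28 ± 0.07 with A13 over IgG (limma adjusted p = 0.0077) and -0.30 ± 0.07 with JAG1 over Fc beads (limma adjusted p = 0.0087). Under DAPT against DMSO the difference was -0.03 ± 0.07 (limma adjusted p = 0.830). The probe set that carries NOTCH2NLA alone changed by -0.50 ± 0.15 with DAPT over DMSO (limma adjusted p = 0.0215), by -0.81 ± 0.15 with IgG over DMSO (0.0004) and by 0.06 ± 0.15 with A13 over IgG (0.867). Whether the probes bind transcripts of several of these near-identical copies was not tested.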
